A study of Emberiza melanocephala with 15 samples.

Results

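Photorefractory blackheaded buntings sampled at hour 18 of an extended light period were compared with photorefractory buntings sampled at hours 10 and 14 of the same light period. The members are the 2 hypothalamus libraries labelled photorefractory (refractory in the labels) at hour 18 and, as the reference, the 4 photorefractory libraries of hours 10 and 14, that is 6 of the 15 libraries of the study. Libraries were grouped by their labelled state and hour alone, but the comparison was chosen with earlier results of these data known. The blackheaded bunting (Emberiza melanocephala) is a migratory songbird, and every bird was an adult male caught from the wild, held in captivity and sampled once, so each library stands for 1 bird. All 6 birds had been kept on long days until they no longer responded to them, and on the day of sampling the lights came on at hour 0 and were not switched off, so hours 10, 14 and 18 are hours of continuous light. The photosensitive birds used beside them (2 birds at each of hours 10, 14, 18 and 22) had been kept on short days and were also given extended light. In addition, 1 photorefractory library of hour 22 was available. The paper sampled 2 such birds and left out 1 whose sample failed a quality check. For photorefractory birds, hours 10 and 14 lay within their usual light and hour 18 after their usual lights-off. For photosensitive birds, hours 10, 14 and 18 all lay after usual lights-off, so the same hours stood differently to the usual day of each state. A bird held on long days stands for the summer state of the species only as far as the photoperiod in a light box does, and each bird gives 1 time point only.

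In birds, light that falls late in the day is read by the mediobasal hypothalamus, where thyrotropin from the pars tuberalis switches the local conversion of thyroid hormone through the deiodinases Dio2 and Dio3, and the hormonal drive to the gonads follows. After weeks of long days the gonads regress although the days stay long, a state called photorefractoriness, in which long days no longer stimulate reproduction until short days have been experienced. The comparison asks which hypothalamic transcripts of such birds differ when light has run on past their usual lights-off. Birds sampled past lights-off were also sampled later in the day than the reference birds. No bird was sampled in darkness, so time of day and extended light cannot be told apart. The part of each in the differences was not tested. The paper counts the later reference hour as a long day as well, so the comparison does not separate stimulating from other light. The deposited tables hold assembly identifiers with no gene name and no sequence, so neither these genes nor markers of the hypothalamus could be looked up, and assembled genes are given by identifier only. An assembled gene is here the sum of all transcripts whose identifier differs only in its last part. Several assembled genes may be pieces of the same gene of the bird, so counts of them are not counts of independent genes. Of 317533 assembled genes, which hold 552023 transcripts, 45222 reached an estimated count of 5 in 2 or more of these 6 birds and were tested.

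At hour 18 more assembled genes were lower than higher. With edgeR's quasi-likelihood test and an adjusted p at or below 0.05 as the threshold for a call, 1347 genes (2.98% of those tested) differed from hours 10 and 14. Of these, 935 (2.07%) fell and 412 (0.911%) rose. The fallen genes changed by more, with a median log2 fold change of -2.47 against 1.52 among the risen genes, and 610 fallen and 138 risen genes changed by over 2 on the log2 scale, as 11.2% of all tested genes did. Across all 45222 genes the median log2 fold change was -0.12, but it was 0.076 in the most abundant of 5 classes by level. Because fewer cells of a type and less RNA per cell cannot be told apart in whole hypothalamus, a lower level is not a statement on any cell.

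**Figure D1:**
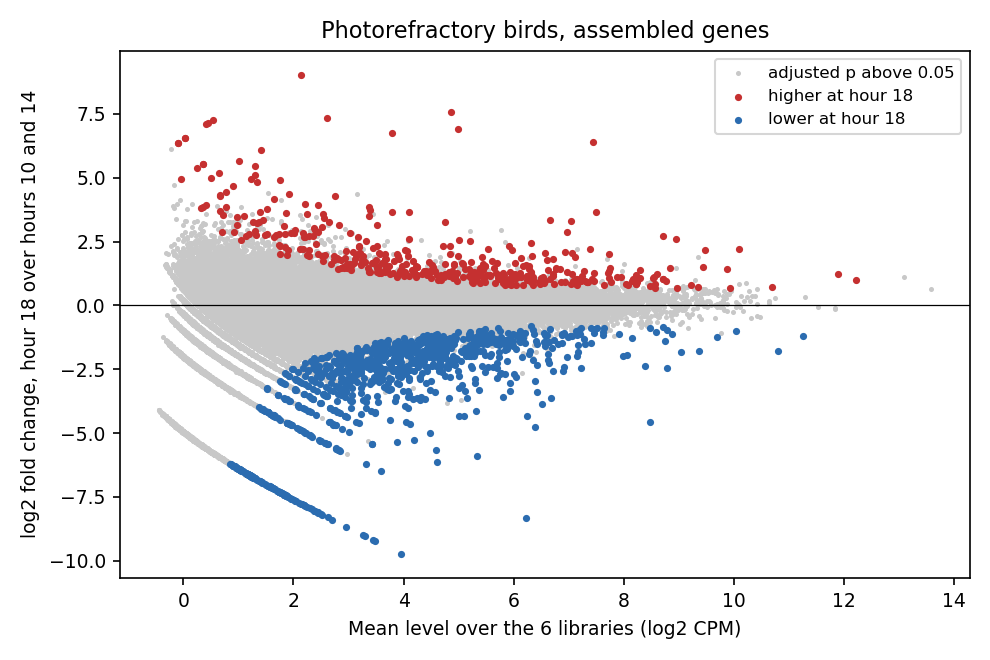
Log2 fold change of photorefractory hour 18 over hours 10 and 14 (vertical axis) against the mean level over the 6 libraries in log2 CPM (horizontal axis), 1 point per assembled gene. Red points are the 412 genes called higher and blue points the 935 called lower. The curved streaks at the lower left are genes with 0 or very few counts in the hour 18 birds.

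The fallen genes were at moderate levels in the reference birds. Their median level over genes, in CPM (counts scaled by library size), was 16.4 and 15.8 in the birds of hour 10 and 15.1 and 15.4 in those of hour 14. It was 2.33 and 2.52 CPM in the hour 18 birds. Each of the 935 genes was lower in both hour 18 birds than in all 4 reference birds, against 21% of all tested genes that were lower without overlap. Together the fallen genes took 3.65% to 4.70% of the counts of a reference bird and 1.30% and 1.25% of those of the hour 18 birds. Both hour 18 birds had no count at all for 133 fallen genes, and for 1815 of all 45222 tested genes. Such genes passed the count minimum through the reference birds alone. The reverse held for 9 tested genes, which had no count in any reference bird. With 4 deeper libraries in the reference and 2 shallower ones at hour 18, the filter admits more genes of the first kind. Set against a floor of 3 counts over both libraries, which is 0.453 CPM and covers counting error only, these 133 genes were at least 4.23-fold lower, with a median bound of 7.39-fold. With them placed at this bound the median log2 fold change of the fallen genes was -2.39.

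In the reference birds the risen genes had slightly lower median levels than the fallen genes. Their median level was 13.4 to 14.3 CPM in the reference birds, and 34.1 and 43.1 CPM in the hour 18 birds. Their share of all counts was 2.55% to 2.85% in the reference birds and 5.59% and 6.58% at hour 18. Of the 412 risen genes, 398 were higher in both hour 18 birds than in all 4 reference birds, against 9.24% of all tested genes, and 8 had no count in any reference bird. Over both directions 13690 genes (30.3%) did not overlap, so separation of the birds was far more common than a call. Bird 2 of hour 18 stood further from the reference than bird 1 in 58.7% of the risen, 41% of the fallen and 51.1% of all tested genes. A call favours genes in which both hour 18 birds differ alike, so the shares among called genes are a description.

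The gene with the smallest p among those that rose was TRINITY_DN93464_c5_g3, a single transcript of 357 nt. Hour 10 birds had levels of 184.5 and 178 CPM and hour 14 birds of 220.5 and 154 CPM, while the hour 18 birds reached 1009 and 1079.6 CPM. Both hour 18 birds stood well above the other 4, and the means were 1044 ± 50 (SD, n = 2) against 184 ± 27.4 CPM (SD, n = 4). The log2 fold change was 2.59 (standard error 0.19, edgeR adjusted p = 0.000452), and the ratio of mean CPM was 5.67. In the single photorefractory bird of hour 22 it was at 142 CPM, and in photosensitive birds of hour 18 at 112 and 104 CPM.

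Among the other risen genes the largest difference in level belonged to TRINITY_DN96356_c22_g1, which has 10 assembled transcripts. Levels of 2059 and 3163 CPM (hour 10) and of 3041 and 2255 CPM (hour 14) compared with 5807 and 5679 CPM at hour 18. Every hour 18 value lay above every reference value, although the reference birds differed among themselves within each hour. The mean CPM was 2.18-fold higher (log2 fold change 1.22, standard error 0.19, edgeR adjusted p = 0.0065), a call lost under 4 of 24 other settings. Its most abundant transcript also differed, being i6 at hour 18 with 62% of the counts and i8 in the reference with 62.2%.

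TRINITY_DN94665_c5_g1, with 3 transcripts, had the smallest p among the fallen genes. The birds of hour 10 gave 133.5 and 112 CPM for it, those of hour 14 gave 128 and 113 CPM, and the hour 18 pair gave 8.72 and 12.9 CPM. The 4 reference birds lay close together and both hour 18 birds an order of magnitude below them. The mean CPM was 11.3-fold lower (log2 fold change -3.40, standard error 0.28, edgeR adjusted p = 0.000515). The largest drop in level among the other fallen genes was that of TRINITY_DN97333_c8_g5, from 3496 and 2500.2 CPM (hour 10) and 3799 and 2230.0 CPM (hour 14) to 1452 and 1010.4 CPM. Its groups did not overlap, but the reference birds were spread widely, and the log2 fold change of -1.21 (standard error 0.26) had an edgeR adjusted p of 0.0299. That call was lost under 11 of 24 other settings of the processing.

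**Figure D2:**
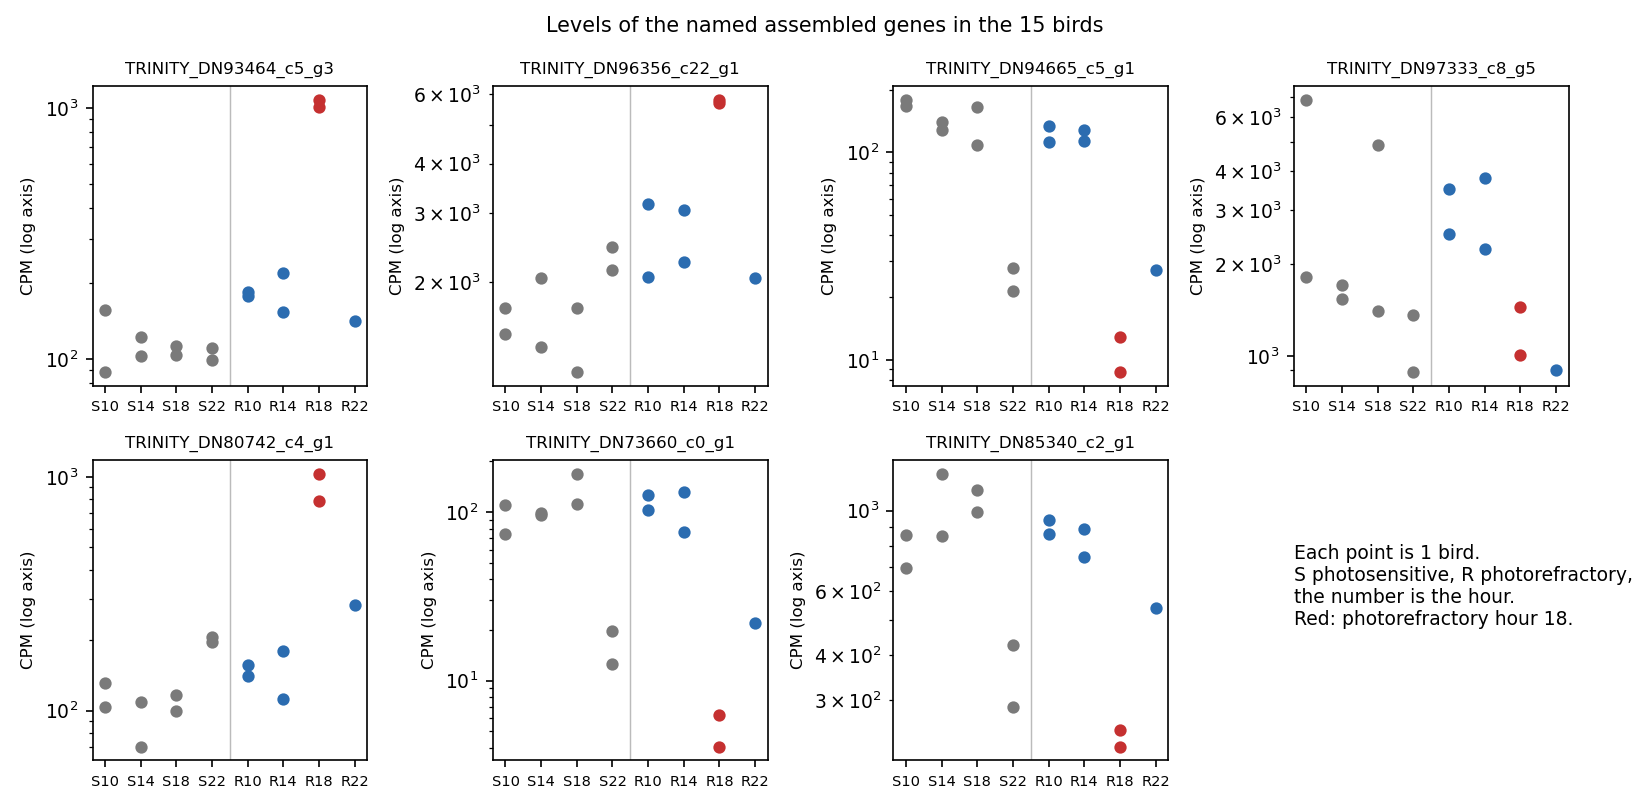
Level in CPM (log axis) of the 7 named assembled genes in each of the 15 birds, 1 point per bird, by state and hour (S photosensitive, R photorefractory). TRINITY_DN93464_c5_g3 is high at photorefractory hour 18 alone, while TRINITY_DN94665_c5_g1 and TRINITY_DN73660_c0_g1 are low there and also at hour 22 in both states.

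The hour 18 libraries differed from the others in more than gene levels. They were the shallowest of the 15, with 3441451 and 3176062 pseudoaligned reads against 4306137 to 7088920 in the 4 reference birds. Their mean fragment length was 230.2 and 208.3 nt, against 245.4 to 254.5 nt in the reference birds and 240.6 to 261.6 nt in the other 9. The means differed by -12.8% in fragment length and by -41.6% in depth, each without overlap, and an exact two-sided permutation test of 2 against 4 birds gave p = 0.133 for both, the smallest p this design allows. With every library thinned to 3176053 counts, 67883 and 67240 assembled genes had a count in the hour 18 birds against 77136 to 98522 in the reference birds. The 10 most abundant genes of each bird took 5.69% and 5.72% of its counts at hour 18 and 3.04% to 4.55% in the reference. Transcripts under 500 nt, in contrast, took 9.08% and 10.99% of the counts at hour 18, within or close to the 9.39% to 11.1% of the reference birds.

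**Figure D3:**
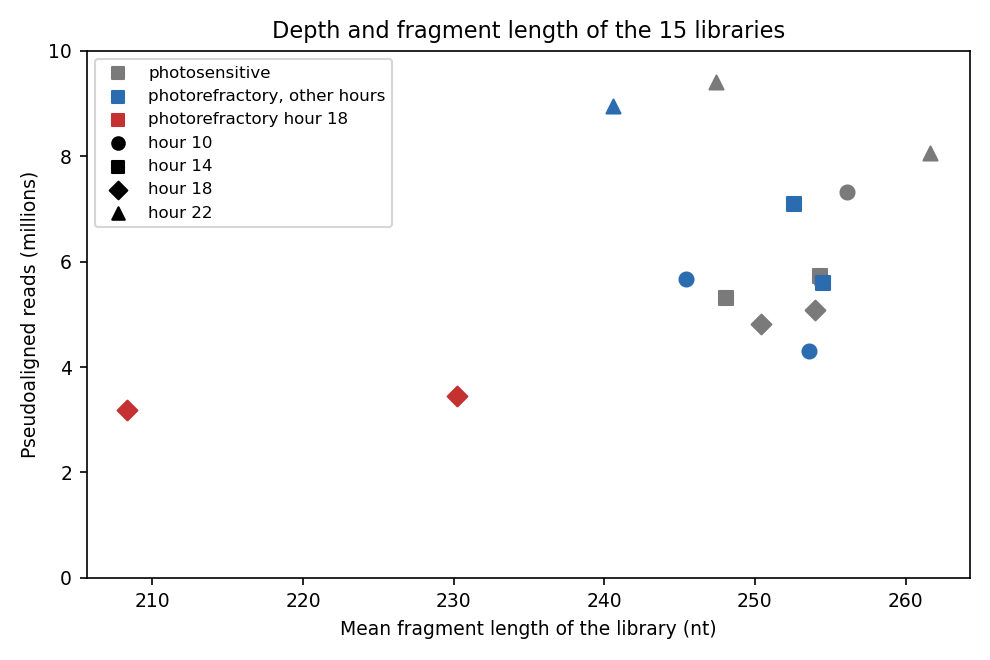
Pseudoaligned reads (vertical axis) against mean fragment length in nt (horizontal axis) for the 15 libraries, coloured by state and with a symbol per hour. The 2 libraries of photorefractory hour 18 have the lowest depth and the shortest fragments.

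Depth and fragment length were each checked against the calls. After thinning to equal depth 1351 genes were called, 1215 of them among the 1347. With fragment length as a covariate the count was 14, of which 10 were among the 1347. The median standard error of the 1347 genes rose from 0.40 to 0.89. The fallen genes had a median log2 fold change of -2.93 with the covariate and -2.47 without it, and 933 of the 935 stayed lower. The risen genes had 1.18 with the covariate and 1.52 without it, and 42 of the 412 turned lower. TRINITY_DN94665_c5_g1 still passed with fragment length as a covariate (log2 -4.41, edgeR adjusted p = 0.0272) and TRINITY_DN93464_c5_g3 did not (log2 2.29, edgeR adjusted p = 0.105). TRINITY_DN96356_c22_g1 did not pass either (log2 1.39, edgeR adjusted p = 0.307). With log2 total count as a covariate all 1347 genes kept their sign and none was called. The 1 gene called there, TRINITY_DN95645_c7_g1, is outside the naming rule and was picked after its values were seen. It had 10.2 to 91.1 CPM in the reference birds and 155 and 129 CPM at hour 18. Fragment length, depth and hour 18 cannot be told apart in these 6 birds, since no hour 18 bird had the depth or fragment length of a reference bird.

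The change ran with transcript length and with level. In 5 classes of equal number by length, 3.17%, 3.83%, 2.12%, 0.84% and 0.376% of the genes fell from the shortest to the longest class, and 1.54%, 1.04%, 0.663%, 0.652% and 0.663% rose. The median log2 fold change was -0.25 in the shortest and 0.01 in the longest class, a difference of 0.26, or 0.49 with effective length offsets. With fragment length as a covariate these medians were -0.59 and 0.24. Called genes were accordingly short, with a median length of 716 nt for the risen and 644 nt for the fallen against 1166 nt for all tested genes. Each gene's log2 level relative to the 6-bird average was also compared between the longest and shortest class in single birds. This value was 0.25 and 0.09 in the hour 18 birds and between -0.22 and 0.24 in the reference birds, so it overlapped between the groups. Calls also depended on level, as 0.122% of the least and 5.74% of the most abundant class were called. The median log2 fold change was -0.845 in the least and 0.076 in the most abundant class. The part of transcript length in the calls was not tested.

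Hours 10 and 14 were then taken apart, with hour 18 set against each. These 2 comparisons share the hour 18 birds. Against hour 10, 682 genes (1.51%) were called, 108 higher and 574 lower. Against hour 14, 522 genes (1.15%) were called, 122 higher and 400 lower, and 415 genes were called in both. Between hours 14 and 10 the same model called 0 genes (0%) by edgeR and 5 by DESeq2, with 1594 genes (3.53%) at an unadjusted p under 0.05. Single birds moved these counts. Without bird 1 of hour 10 the count against hour 10 was 117, and without bird 1 of hour 14 that against hour 14 was 163.

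**Figure D4:**
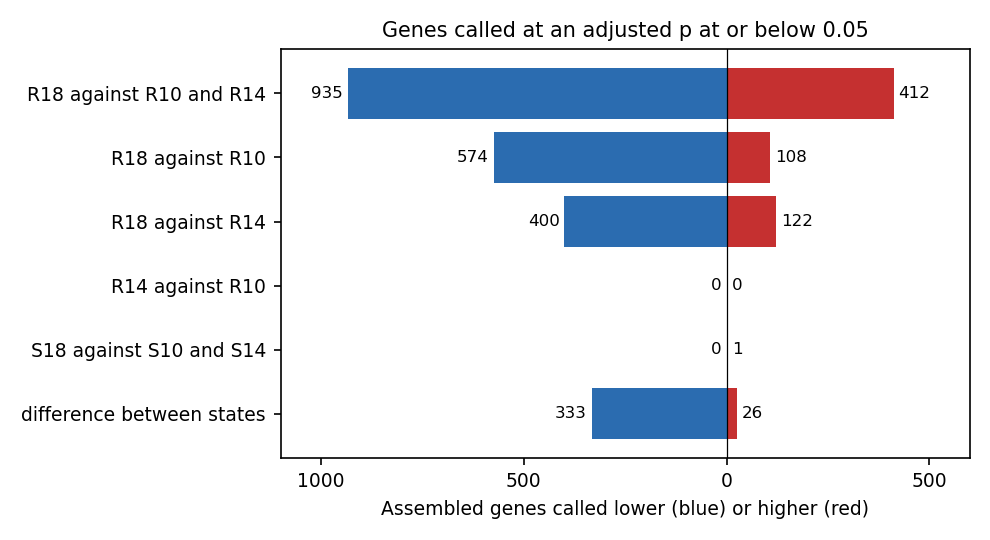
Number of assembled genes called lower (blue, left) and higher (red, right) in each comparison at an adjusted p at or below 0.05 (R photorefractory, S photosensitive, the number is the hour). Photorefractory hour 18 gave 935 lower and 412 higher genes, photosensitive hour 18 gave 1 and photorefractory hour 14 against hour 10 gave none. The spread between birds was larger in the photosensitive fit, so these counts do not rest on equal power.

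The 1347 calls also rested on single birds to different degrees. Leaving out bird 2 of hour 18 left 384 calls and leaving out bird 1 of hour 18 left 696, and the lone hour 18 bird was then assumed to vary like the reference. The count was 608 without bird 2 of hour 10, 696 without bird 1 of hour 14, 870 without bird 1 of hour 10 and 1440 without bird 2 of hour 14. A core of 184 genes, 34 risen and 150 fallen, was called in every one of these 6 refits and with all birds. Higher genes made up 30.6% of the calls on counts. On TPM limma gave 12.7% with a pseudocount of 1 and 5.23% with a pseudocount of 0.1, and 343 of 696 genes were higher without bird 1 of hour 18. More genes fell than rose in each of these fits.

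Single transcripts gave a different count from their genes. None of the 71774 transcripts tested (0%) was called by edgeR, where the smallest adjusted p was 0.0618, although 8684 (12.1%) had an unadjusted p under 0.05. The spread between birds, as a coefficient of biological variation, was 89.9% for transcripts and 33.6% for assembled genes. DESeq2 called 5010 transcripts, so the tools differed at this level.

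Some genes had another most abundant, or leading, transcript at hour 18. Among photorefractory birds, 6693 assembled genes had at least 20 counts in each bird, 1 shared leading transcript in both hour 18 birds and 1 in all 4 reference birds. In 209 of these (3.12%) the leading transcript at hour 18 was another than in the reference. The same count over the photosensitive birds of hours 10, 14 and 18 was 95 of 7288 (1.30%). Of the 209 genes, 16 (7.66%) were called as changed in level, and 189 differed by less than 1 on the log2 scale. Among all tested genes 2.98% were called, and 5.02% and 5.74% in the next-to-highest and highest of the 5 classes by level. The minimum of 20 counts in each bird selects abundant genes, so the share of 7.66% is not read as a link with level. This count is a description without a test, and the transcripts of a gene share reads that the pseudoalignment divides among them.

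In photosensitive birds the same hours gave 1 call among 52276 genes (0.00191%) by edgeR and 45 by DESeq2, with 4552 genes (8.71%) at an unadjusted p under 0.05. The coefficient of biological variation was 41.3% in this fit and 33.6% in the photorefractory one. A change was thus harder to call here, and the low count does not show that photosensitive birds did not change. The called gene, TRINITY_DN93567_c0_g4, was named after its values were seen. It had 41.6 and 42.6 CPM in the photosensitive birds of hour 18 and 2.07 to 4.71 CPM in those of hours 10 and 14, while the photorefractory pair of hour 18 had 1.16 and 1.57 CPM. Of the 412 genes that rose in photorefractory birds, 375 could be tested in photosensitive birds, where 219 (58.4%) were higher at hour 18, beside 44.7% of all genes, with a median log2 fold change of 0.10. At an unadjusted p under 0.05, 29 of them were higher and 13 lower, beside 4% and 4.7% of all genes. Of the 935 that fell, 934 could be tested, and 523 were lower and 411 higher, with a median of -0.13 against -0.10 over all genes. At an unadjusted p under 0.05, 113 of the 934 were lower and 76 higher, beside 4.7% lower and 4% higher of all genes. Both counts lay above these shares. Both medians were much smaller than in photorefractory birds. The genes were selected for their change in photorefractory birds, which by itself enlarges the medians there, so this contrast is a description.

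The difference between the states was tested directly as an interaction over 12 birds. Of 57716 genes, 359 (0.622%) changed differently between hours 10 and 14 and hour 18 in the 2 states, 333 of them (0.577%) lower and 26 (0.045%) higher in photorefractory birds. Of the 1347 genes called in photorefractory birds 24.4% were called here, and they make up 91.4% of the 359. Both tests use the same photorefractory birds of hours 10, 14 and 18, so an overlap is built in and is not separate support. Among the 333, the median log2 change was -3.04 in photorefractory and 0.50 in photosensitive birds. These genes were called for that very difference, which favours a fall in one state and a rise in the other, so the medians describe the calls and support nothing further. The rest of the genes called in photorefractory birds were not shown to differ between states. The photorefractory pair of hour 18 had the lowest depth and the shortest fragments of these 12 birds. After thinning to equal depth 311 genes were called by this test. Neither fragment length nor depth was used in it as a covariate, and their part in the difference was not tested. The count of 359 was 12 without bird 1 and 77 without bird 2 of photorefractory hour 18, 71 without bird 2 and 878 without bird 1 of photosensitive hour 18.

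TRINITY_DN73660_c0_g1, with 3 transcripts, had the smallest p of this test. Photorefractory birds had 126 and 104 CPM of it (hour 10), 131 and 76.4 CPM (hour 14), and then 4.07 and 6.30 CPM (hour 18). The photosensitive pair of hour 18 gave 111 and 169 CPM, and the photosensitive birds of hours 10 and 14 gave 73.9 to 110.5 CPM. All 10 other birds of these hours were thus far above the photorefractory pair of hour 18. The change differed between states by -5.06 on the log2 scale (standard error 0.48, edgeR adjusted p = 0.00064). Under 17 other settings it lay between -5.39 and -4.59, but none of them had fragment length or depth as a covariate. The call in photorefractory birds held with fragment length as a covariate (edgeR adjusted p = 0.0339) and was lost with log2 total count as one (edgeR adjusted p = 0.0689).

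TRINITY_DN85340_c2_g1, with 10 transcripts, had the largest fall in level among the rest. Its values in photorefractory birds were 863.5 and 942 CPM (hour 10), 888 and 744 CPM (hour 14), and 223 and 249 CPM (hour 18). Photosensitive birds had 991 and 1140.2 CPM at hour 18, above 3 of their 4 birds of hours 10 and 14. The states differed by -2.16 on the log2 scale (standard error 0.34, edgeR adjusted p = 0.00897). This call was lost without bird 1 (edgeR adjusted p = 0.0967) or bird 2 (0.0507) of photorefractory hour 18. Leaving out the second bird of photosensitive hour 18 also ended it (edgeR adjusted p = 0.0521). The call in photorefractory birds was lost with fragment length as a covariate (log2 -2.13, edgeR adjusted p = 0.126).

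Among genes higher in photorefractory birds by this test, TRINITY_DN93464_c5_g3 again came first (log2 difference 2.56, standard error 0.35, edgeR adjusted p = 0.00361). TRINITY_DN80742_c4_g1, a single transcript of 220 nt, had 156 and 140.3 CPM (hour 10), 179.6 and 112 CPM (hour 14), and 786 and 1029 CPM (hour 18) in photorefractory birds. Photosensitive birds stayed between 70.3 and 132 CPM over these hours, close to the photorefractory birds of hours 10 and 14 and far below the hour 18 pair. The log2 difference was 2.48 (standard error 0.38, edgeR adjusted p = 0.00721), and the call was lost without bird 1 (edgeR adjusted p = 0.0506) or bird 2 (0.0505) of photorefractory hour 18. With fragment length as a covariate the change within photorefractory birds went from 2.71 to 1.96 on the log2 scale (edgeR adjusted p = 0.166). At 220 nt it is shorter than the mean fragment of each reference library (245.4 to 254.5 nt) and near those of the hour 18 pair (230.2 and 208.3 nt). Its TPM, which divides by effective length, was 10003 and 13995 at hour 18 against 1556 to 2185 in the reference birds. Fragment length and hour 18 cannot be told apart here. At hour 22 it had 195.9 and 206.8 CPM in photosensitive birds (log2 0.94 against hours 10 and 14, edgeR adjusted p = 0.0274). The photorefractory bird of hour 22 had 283 CPM, above all reference birds.

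Levels at hour 22, from birds that entered neither comparison, were set beside those of hour 18. The median of the 935 fallen genes was 7.56 and 8.29 CPM in the photosensitive birds of hour 22 and 9.27 CPM in the photorefractory bird, below the 12.4 to 18.1 CPM of all other birds outside photorefractory hour 18. The 412 risen genes had medians of 16.1 and 13.7 CPM at photosensitive hour 22, inside the 12.8 to 18.5 CPM of the earlier photosensitive birds, and of 17.0 CPM in the photorefractory bird of hour 22, above the 13.4 to 14.3 CPM of the reference birds. These hour 22 libraries were deep, with 8068941 to 9403923 reads, and had fragments of 240.6 to 261.6 nt. Transcripts under 500 nt took 7.68% and 7.88% of the counts at photosensitive hour 22 and 8.84% in the photorefractory bird. In all other libraries this share was 9.08% to 12.77%. The fallen genes were short, and the part of this lower share in their level at hour 22 was not tested. In the photorefractory bird of hour 22, 618 of the 935 fallen genes (66.1%) lay below all 4 reference birds, and 173 of the 412 risen genes (42%) lay above them. Over all tested genes 27.7% lay below and 31.7% above. The called genes were selected with these same 4 reference birds, which by itself places a further bird below or above them more often, so these shares are descriptions and with 1 bird have no test.

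**Figure D5:**
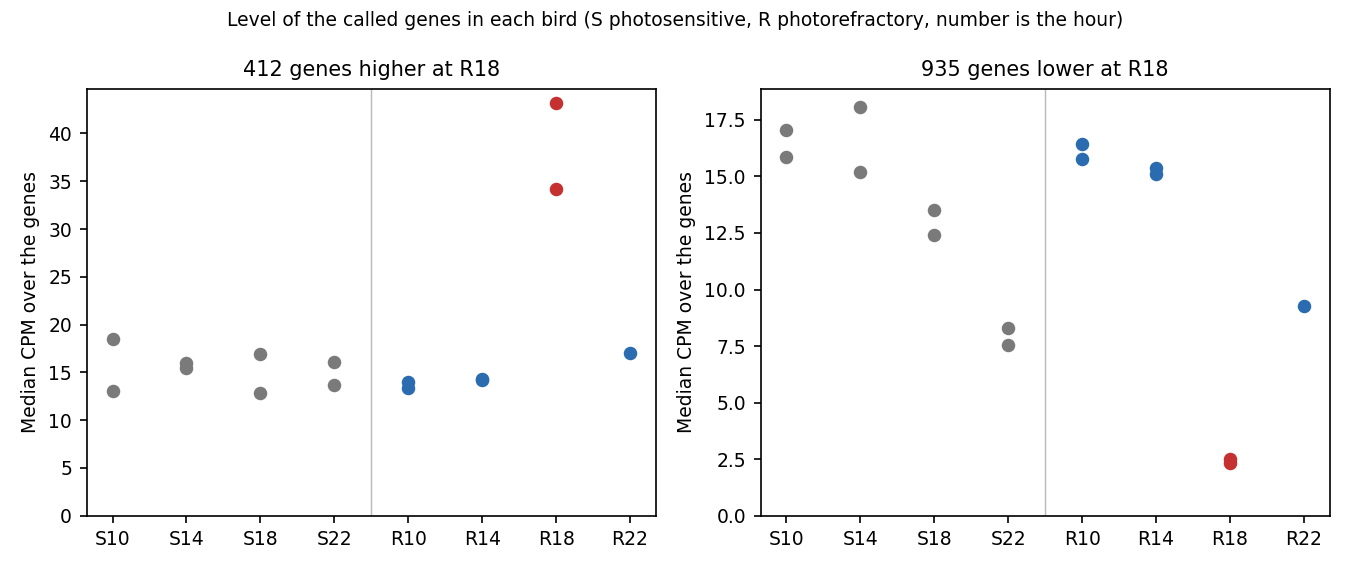
Median CPM over the 412 genes higher (left) and the 935 genes lower (right) at photorefractory hour 18 in each of the 15 birds (S photosensitive, R photorefractory, the number is the hour). The fallen genes have 2.33 and 2.52 CPM at photorefractory hour 18 and 7.56 to 9.27 CPM in the 3 birds of hour 22, while the risen genes are high in the hour 18 pair alone.

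Photosensitive birds share no library with the photorefractory comparison, and hour 22 was tested against hours 10 and 14 in them, a comparison chosen after these levels had been seen. It called 10923 of 61546 genes (17.7%), 6282 higher (10.2%) and 4641 lower (7.54%). Of the 934 fallen genes tested there, 817 were lower at hour 22 with a median log2 fold change of -1.20, against 0.04 over all genes. Called lower were 457 of them (48.9%) and called higher 11. The count of all calls fell to 1284 without bird 1 and to 234 without bird 2 of hour 22, and that of fallen genes called lower to 165 and 79, while 778 and 833 of the 934 were still lower. Of 384 risen genes tested, 50 were called higher and 40 lower, shares of 13% and 10.4% beside the 10.2% and 7.54% of all genes.

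The named fallen genes followed this pattern in part. TRINITY_DN94665_c5_g1 was at 21.6 and 27.8 CPM at photosensitive hour 22 and at 27.1 CPM in the photorefractory bird, against 129 to 179.8 CPM at photosensitive hours 10 and 14 (log2 -2.65, standard error 0.23, edgeR adjusted p = 0.00242). At photosensitive hour 18 it was still at 109 and 166.5 CPM. TRINITY_DN73660_c0_g1 was at 12.5 and 19.6 CPM at photosensitive hour 22 (log2 -2.58, edgeR adjusted p = 0.00403) and at 22.1 CPM in the photorefractory bird. Both were thus low at hour 22 in all 3 birds and at hour 18 in photorefractory birds alone. TRINITY_DN85340_c2_g1 had 288 and 426 CPM at photosensitive hour 22 (log2 -1.38, edgeR adjusted p = 0.0184) and 539 CPM in the photorefractory bird. TRINITY_DN97333_c8_g5 did not pass there (log2 -1.43, edgeR adjusted p = 0.159), with 887 and 1366 CPM.

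The distance between birds, as the standard deviation of their log2(CPM + 1) difference over genes, was 0.778 between the hour 18 birds. It was 0.807 to 0.950 between an hour 18 and a reference bird, and 0.575 to 0.750 among the 4 reference birds. Spearman's rho over the same genes was 0.875 within the hour 18 pair, 0.812 to 0.854 between an hour 18 and a reference bird, and 0.863 to 0.906 among the reference birds. By both measures the hour 18 birds were nearer to each other than to the reference. Within the pair, the first measure lay outside the range of the reference pairs and rho inside it, on libraries of unequal depth.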

How the data were processed

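Hypothalamus total RNA was depleted of ribosomal RNA and sequenced as paired-end reads, 1 library per bird. The authors trimmed the reads with Trimmomatic, assembled them with Trinity, reduced redundancy with CD-HIT and pseudoaligned them with kallisto, using a single index built from every time point. For kallisto, the version was not given in the sources used here. Each deposited table holds, per transcript, its length and effective length, an estimated count without normalization and TPM. No extraction or sequencing batch is given in the sources used here.

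Estimated counts were summed per assembled gene and rounded, which changed no total by more than 0.00188%. Genes or transcripts with at least 5 in at least 2 libraries of a fit were tested with edgeR 4.0.16 (quasi-likelihood test, TMM factors, Benjamini-Hochberg, R 4.3.3) at an adjusted p of 0.05. Standard errors of log2 fold changes were taken from the test statistic. CPM use the library total, with no TMM factor. Fragment length is the median of length minus effective length over transcripts longer than 2000 nt. A count of 0 allows up to 3 counts, or 0.423 to 0.945 CPM per library of the 6. Library properties were compared by an exact permutation test.

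Results were recomputed with DESeq2 1.42.0, with limma 3.58.1 on log2 TPM (pseudocounts of 1 and 0.1), with edgeR's exact test, RLE factors, other filters, thinning, covariates, effective length offsets or the bird number as a block, and without single birds. Plots used matplotlib 3.10.9 (Python 3.11.15).

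The libraries, lists and tests were chosen with earlier results of these data known. Per comparison and direction, the gene with the smallest p and that with the largest difference in mean CPM among the rest were named, among called genes whose photorefractory groups did not overlap. Bird numbers were not taken to pair the birds. Deviations of same-numbered birds correlated at 0.17, -0.04 and -0.16 between the 3 pairs of photorefractory hours. These values had no reference to be set against, so they cannot decide whether same-numbered birds were handled together.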

Additional observations from a re-analysis of the deposited data

Results flagged for a closer look

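The change at hour 18 differed between photorefractory and photosensitive birds for 359 assembled genes by the interaction test, which had no covariate for depth or fragment length. Of the named genes, the difference in log2 fold change was 2.56 for TRINITY_DN93464_c5_g3, 2.48 for TRINITY_DN80742_c4_g1, -5.06 for TRINITY_DN73660_c0_g1, -2.16 for TRINITY_DN85340_c2_g1 and -3.44 for TRINITY_DN94665_c5_g1, each past the threshold in edgeR's test.

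Among the 4 photosensitive birds of hours 10 and 14, bird 1 of hour 10 stood apart in TRINITY_DN97333_c8_g5 with 6856 CPM against 1543 to 1807 CPM in the others, and its gap to the next bird was 0.95 of the whole range. Among the 4 photorefractory birds of hours 10 and 14, bird 2 of hour 14 stood apart in the share of counts of its 10 most abundant genes, with 3.04% against 4.35% to 4.55% and a gap of 0.866 of the range. By chance alone about 1 in 20 groups would be listed here.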

How the results depend on the processing

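For the main comparison 1347 genes became 2115 with DESeq2, 2562 without a count minimum, 2519 with the exact test on counts, 2354 with it on TPM, 748 above a log2 fold change of 2, 14 with fragment length and 1 with log2 total count as a covariate, and 384 to 1440 with 1 bird left out. With the bird number as a replicate block it was 1049, and 67 with fragment length added. The labels do not say whether equal numbers mark anything shared, and not every bird correlated best with its own number. Against hour 10 the block gave 385, against hour 14 it gave 281, and at photosensitive hour 22 it gave 7128. DESeq2 called 1222, 1055, 1012, 45, 5 and 5010 features against hour 10, against hour 14, for the difference between states, in photosensitive birds, between hours 14 and 10 and for transcripts, and no count minimum 1666, 1569, 1172, 425, 139 and 4377. Thinning called 34 transcripts. With 1 bird left out the counts were 117 to 729 against hour 10, 163 to 379 against hour 14, 12 to 878 for the difference between states, 1 to 3 between hours 14 and 10, 0 to 8 in photosensitive birds at hour 18 and 234 to 15858 at hour 22. Effective length offsets moved the length difference from 0.26 to 0.49. The difference in genes detected, -17546 at equal depth, was -35559 without thinning and -2927 for at least 5 counts. The causes were not tested. No named gene reversed under any setting run, but with log2 total count as a covariate none of the 4 genes named in the main comparison passed (adjusted p 0.0689 to 0.974), and with fragment length only TRINITY_DN94665_c5_g1 did.

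Depth limits the lowest genes. A count of 0 in an hour 18 bird allows 0.872 or 0.945 CPM, so loss of genes below these levels could not be detected in a single bird.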
